A study of Homo sapiens with 12 samples.

Results

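The D-type cyclins, the kinases CDK4 and CDK6 that they activate, and the inhibitors of these kinases were followed in the oral squamous cell carcinoma (OSCC) lines HN6 and HN30 after knockdown of FAT1, which encodes a large atypical cadherin. The 10 genes were taken by symbol from the deposited count table of 19225 entries: CCND1, CCND2 and CCND3 for the cyclins, CDK4 and CDK6 for the kinases, CDKN2A, CDKN2B and CDKN2C for the INK4 inhibitors, and CDKN1B and CDKN1C for the CIP/KIP inhibitors. All 10 were in the table, and 9 passed the filter on low counts that left 13887 genes for testing; CCND2 did not. Each line received a scrambled siRNA (NC), siFAT1-1 or siFAT1-2, and RNA was taken 24 h after transfection. Each of the 6 conditions was sequenced in 2 libraries, the second from a repeat at a separate time, which gave 12 libraries, 4 with NC and 8 with knockdown (KD). The labels name the knockdown groups FAT1-sh1 and FAT1-sh2 in titles and FAT1 siRNAs in descriptions and protocols; the siRNA names are used here. Both lines are established cultures, and all groups received the same transfection reagent, Lipofectamine RNAiMAX.

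D-type cyclins are made in response to growth signals and join CDK4 or CDK6 into the kinase that phosphorylates the retinoblastoma protein RB and so releases E2F transcription factors at the start of the cell cycle. INK4 proteins bind CDK4 and CDK6 and keep the cyclin away, whereas p27 (CDKN1B) and p57 (CDKN1C) bind the assembled complexes and also act on CDK2. In head and neck squamous carcinoma the cyclin D1 gene is often amplified together with its neighbours in 11q13, and CDKN2A is often lost from 9p21.

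Levels are given in CPM, a gene's count relative to the library total after scaling by TMM factors, and folds as log2 fold changes with their standard error (SE) from edgeR; a gene is said to have risen, fallen or been called where the p-value of edgeR, adjusted over all 13887 genes, was under 0.05. Libraries held 26430049 to 47639010 counts. In the fit of the 6 conditions, p-values measure the spread between these repeats. In the fits with cell line as a term they also take in differences of an siRNA effect between the lines. For both siRNAs pooled, they further take in the difference between the siRNAs. FAT1 held 56.8 and 66.7 CPM in HN6 NC, 7.61 and 13.5 CPM after siFAT1-1, and 13.2 and 21.4 CPM after siFAT1-2. In HN30 the NC libraries held 13.6 and 14.7 CPM, those of siFAT1-1 4.86 and 6.26, and those of siFAT1-2 10.8 and 7.74. All 8 KD libraries thus lay below the NC libraries of their line, and FAT1 fell by 2.00 (SE 0.32, adjusted p = 0.00656) on the log2 scale with siFAT1-1 and by 1.27 (SE 0.31, adjusted p = 0.0236) with siFAT1-2; the call for siFAT1-2 was lost without HN6 siFAT1-2 repeat 1 (adjusted p = 0.0716). Of 8 markers of squamous epithelium, 8 reached 1 CPM in HN6 and 7 in HN30, and 0 of 4 leukocyte markers did. Of 5 fibroblast markers, 4 reached it in HN6 NC, 3 in HN6 KD, 2 in HN30 NC and 3 in HN30 KD. For 3 endothelial markers these numbers were 1, 2, 0 and 2. The squamous markers summed to 1351 to 5908 CPM per library, the fibroblast markers to 12.5 to 164 and the endothelial markers to 0.202 to 7.87.

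On GRCh38 (GENCODE 44), CCND1 lies at chr11:69641156-69654474 on the plus strand, CCND2 at chr12:4269771-4305353 on the plus strand and CCND3 at chr6:41934934-42050357 on the minus strand. CDK4 lies at chr12:57747727-57756013 and CDK6 at chr7:92604921-92836573, both on the minus strand. CDKN2A at chr9:21967752-21995301 and CDKN2B at chr9:22002903-22009305 are neighbours on the minus strand, and CDKN2C is at chr1:50960745-50974634 on the plus strand. CDKN1B is at chr12:12685498-12722369 on the plus strand and CDKN1C at chr11:2883213-2885775 on the minus strand. Values count reads over whole genes, so the CDKN2A value joins p16 with p14ARF, which that gene encodes in another reading frame.

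Some of these counts cannot be assigned to 1 gene alone, since the strand setting of the counting is not given in the sources used here. CDK4 shared 1369 bases, 44.2% of its exon length, with TSPAN31, a tetraspanin gene on the opposite strand. CCND1 shared 10.4% with LTO1, which the count table lists as ORAOV1, CDKN2A shared 15.3% with CDKN2B-AS1, and CDKN2C shared 20.4% with a non-coding gene. By sequence the members were otherwise distinct: CDKN2A and CDKN2B had 31 stretches of 50 bases in common, under 1% of either gene, and of the stretches in CCND2 11.9% also occur in CCND2P1 or another gene.

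In the NC libraries CCND1 stood far above the other members when levels were set per kilobase of merged exon. Its level was 809 ± 98.1 CPM per kb in HN6 (SD, n = 2) and 271 ± 123 in HN30, against 78.02 ± 28.1 and 50.6 ± 1.26 for CDK4, the next member in both lines. CCND3, which encodes cyclin D3, followed with 31.9 ± 3.57 and 32.6 ± 4.25 CPM per kb. CDK6 came next with 8.13 ± 8.64 in HN6 and 12.3 ± 5.35 in HN30. These spreads did not separate it from CDKN1B, CDKN2C or CDKN2B in HN6, or from CDKN2A or CDKN1B in HN30. CDKN1C was low in both lines, at 0.806 ± 0.0493 and 0.754 ± 0.0464. Over all 12 libraries CCND1 ranked between 15 and 120 of 19034 genes per length in HN6 and between 55 and 338 in HN30, and it took up to 0.388% of all counts in a library. CCND1 contributed 96.2% of the D-type cyclin level per length in HN6 NC and 88.6% in HN30 NC, with CCND3 making up nearly all of the rest.

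**Figure D1:**
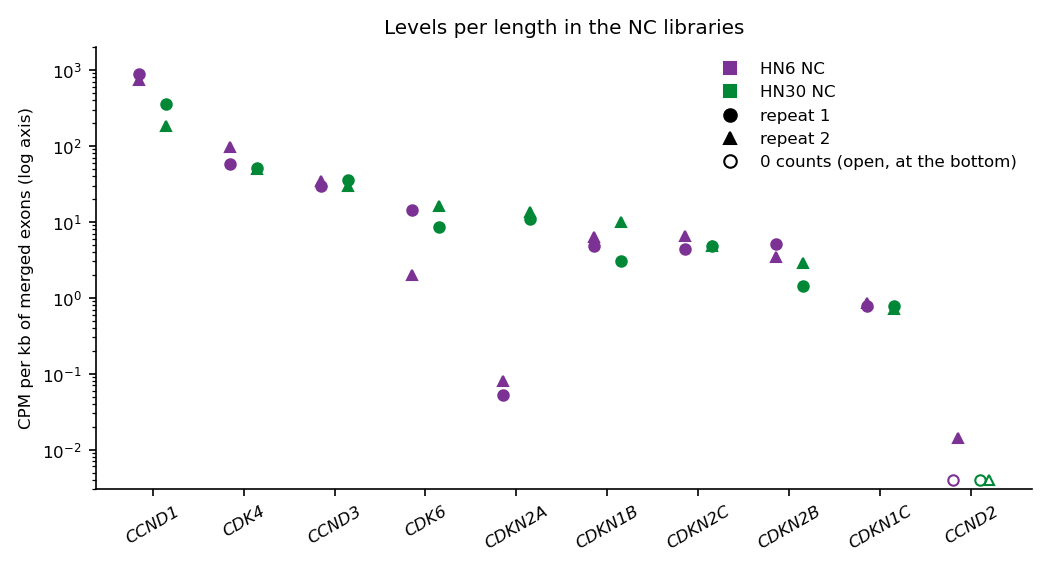
Levels of the 10 members in the NC libraries, in CPM per kb of merged exon on a log axis; each point is 1 library, purple for HN6 and green for HN30, and open points at the bottom are libraries with 0 counts. CCND1 is highest in all 4 libraries, and CDKN2A is the member in which the lines are farthest apart.

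CCND2 was not detected in HN30 and barely in HN6. It had 0 counts in 9 libraries and 4, 6 and 8 counts in the repeat 2 libraries of HN6 NC, siFAT1-1 and siFAT1-2. A count of 0 allows a level of up to 3 counts, which was 0.0679 to 0.112 CPM at these depths and covers counting error only. No fold is given for CCND2.

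The lines differed most in CDKN2A. The 6 HN6 libraries held 6 to 22 CDKN2A counts, 0.205 to 0.669 CPM, whereas the 6 HN30 libraries held 1164 to 2067 counts, 35.5 to 52.1 CPM. The groups lay far apart, with a log2 fold change of -6.64 in HN6 against HN30 (SE 0.31, adjusted p = 1.17e-08). CCND1 was higher in HN6, by 1.66 on the log2 scale (SE 0.20, adjusted p = 3.06e-05), or 3.17-fold. These 2 of 9 members were called, beside 56.9% of all genes tested. CDK6 was lower in HN6 by a log2 fold change of -0.85 (SE 0.35) with an adjusted p of 0.0541, which became 0.0317 with the repeat as a block, 0.00210 without HN6 NC repeat 1 (log2 fold change -1.32), 0.0243 without HN6 NC repeat 2 and 0.0390 without HN30 NC repeat 1. limma-voom (adjusted p = 0.0231), DESeq2 (0.0366) and edgeR with no filter (0.0416) called it too. The other 6 members had log2 fold changes from -0.17 to 0.60 and adjusted p from 0.136 to 0.873; leaving out 1 library brought CDK4 (without HN6 siFAT1-2 repeat 1, adjusted p = 0.00751), CDKN2B (0.0400 without HN6 siFAT1-2 repeat 2, 0.0477 without HN30 siFAT1-2 repeat 1) and CDKN2C (0.0272 without HN30 siFAT1-2 repeat 2) past the threshold.

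The genes that flank these loci are given as a description, since 56.9% of all genes were called between the lines. Of 9 tested neighbours of CCND1 in 11q13, 5 were higher and 2 lower in HN6, with a median log2 fold change of 1.73 beside 0.0012 over all genes. FADD, an adaptor of death receptors, was at 280 to 443 CPM in HN6 and 57.0 to 86.6 in HN30, a log2 fold change of 2.36 (SE 0.14, adjusted p = 8.83e-08), and PPFIA1, a liprin, was higher by 2.17 (SE 0.11, adjusted p = 1.78e-08). MYEOV, on the other side of CCND1, went the other way, with 0.443 to 3.55 CPM in HN6 and 44.3 to 92.9 in HN30 (log2 fold change -5.27, SE 0.29, adjusted p = 4.77e-08). Of 8 tested neighbours of CDKN2A and CDKN2B in 9p21, 4 were lower and 1 higher in HN6, with a median of -0.57. MTAP, a methionine salvage enzyme whose gene adjoins CDKN2A, was at 11.6 to 19.1 CPM in HN6 and 53.7 to 94.3 in HN30, a log2 fold change of -2.27 (SE 0.16, adjusted p = 4.30e-07). IFNE, an interferon gene, had 0 counts in all 6 HN6 libraries and 49 to 205 in HN30, and ELAVL2, which encodes an RNA-binding protein, was higher in HN6 by 2.34 (SE 0.33, adjusted p = 8.64e-05). CDKN2B itself, which lies beside CDKN2A, was not lower in HN6: its NC libraries held 20.5 and 13.9 CPM in HN6 and 5.66 and 11.6 in HN30.

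The NC libraries are shared by both siRNA comparisons, so the folds of siFAT1-1 and siFAT1-2 against NC are set side by side and the siRNAs are compared directly further on. siFAT1-1 called 1 of 9 members, CDK4, beside 3.25% of all genes, and siFAT1-2 called 3, CCND1, CCND3 and CDKN2B, beside 11.8%. No member was called by both. The libraries of 1 member, CDK4, stood apart from NC in the same direction in both lines with siFAT1-1, beside 20.9% of all genes, and those of 4 members, CCND1, CCND3, CDK6 and CDKN2B, with siFAT1-2, beside 22.5%.

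Among the cyclins, CCND1 and CCND3 fell with siFAT1-2. CCND1 was at 4183 and 3522 CPM in HN6 NC, 4152 and 3119 with siFAT1-1, and 979 and 2101 with siFAT1-2. In HN30 it was at 1705 and 878 CPM with NC, 1111 and 1173 with siFAT1-1, and 428 and 494 with siFAT1-2. In each line both siFAT1-2 libraries were thus below NC, while the siFAT1-1 libraries overlapped NC. The log2 fold change of CCND1 with siFAT1-2 was -1.40 (SE 0.25, adjusted p = 0.00683), a level 0.378 times that of NC, and it was called without any 1 of the 12 libraries (adjusted p from 0.00436 to 0.0251). With siFAT1-1 it was -0.13 (SE 0.24, 95% interval -0.66 to 0.40, adjusted p = 0.811). ORAOV1, whose exons overlap the end of CCND1, was at 130.2 and 178 CPM with siFAT1-2 and 141 and 257 with NC in HN6, and at 23.3 and 38.7 with siFAT1-2 and 22.7 and 33.7 with NC in HN30.

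CCND3 followed the same split between the siRNAs at a lower level. It was at 169 and 198 CPM in HN6 NC, 210.3 and 178 with siFAT1-1, and 108 and 119 with siFAT1-2. In HN30 the values were 205 and 170.4 with NC, 273 and 282 with siFAT1-1, and 94.7 and 127 with siFAT1-2. The siFAT1-2 libraries were again all below NC, and in HN30 both siFAT1-1 libraries were above it. CCND3 fell by 0.73 (SE 0.16, adjusted p = 0.0165) with siFAT1-2, to 0.604 times NC; without HN30 NC repeat 1 the adjusted p was 0.0508. With siFAT1-1 its log2 fold change was 0.33 (SE 0.16, adjusted p = 0.287).

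**Figure D2:**
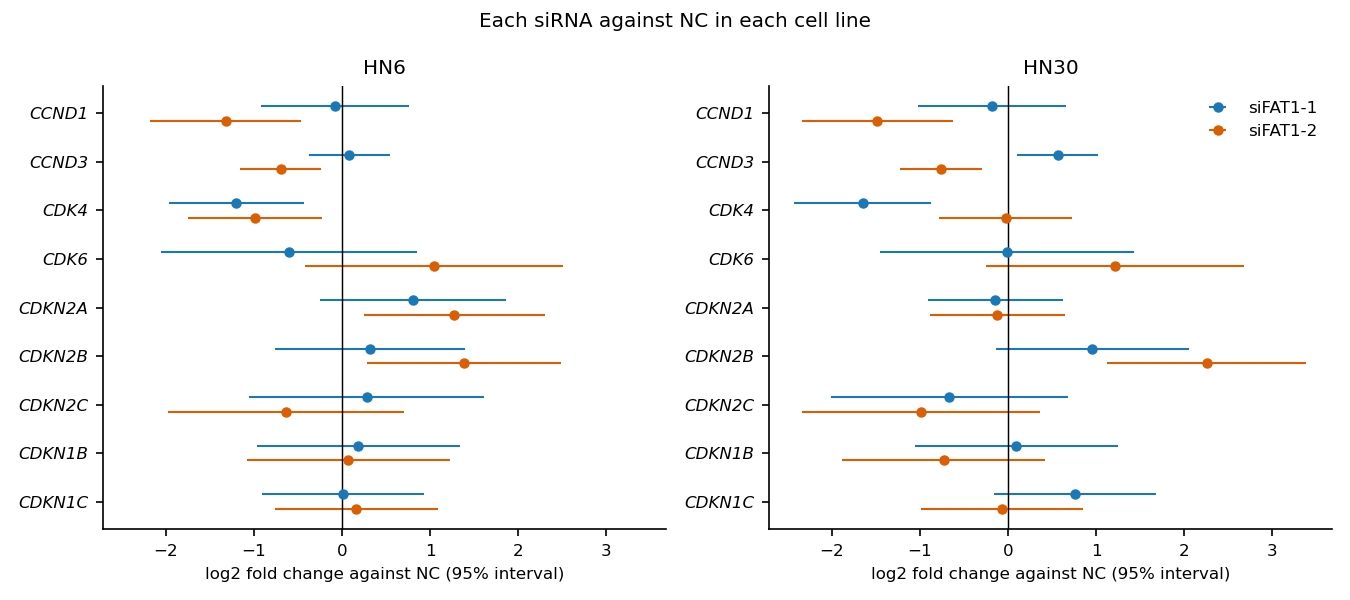
log2 fold change of each tested member against NC for siFAT1-1 (blue) and siFAT1-2 (orange) in HN6 and HN30, from the fit of 6 conditions; lines are 95% intervals. The siFAT1-2 intervals of CCND1, CCND3 and CDKN2B and the siFAT1-1 interval of CDK4 lie on the same side of 0 in both lines.

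Of the kinases, CDK4 fell with siFAT1-1. It was at 179.8 and 303 CPM in HN6 NC, 109 and 101 with siFAT1-1, and 77.5 and 166 with siFAT1-2. In HN30 it was at 159 and 154 CPM with NC, 48.9 and 50.8 with siFAT1-1, and 145 and 163 with siFAT1-2. The siFAT1-1 libraries lay below NC in both lines, whereas those of siFAT1-2 lay below NC in HN6 and overlapped it in HN30. With siFAT1-1 CDK4 fell by 1.40 (SE 0.31, adjusted p = 0.0289), to 0.380 times NC. The call was lost when HN6 siFAT1-1 repeat 2 (adjusted p = 0.0593), HN30 NC repeat 1 (0.0754), HN30 NC repeat 2 (0.0562), HN30 siFAT1-1 repeat 1 (0.134) or HN30 siFAT1-1 repeat 2 (0.133) was left out, with log2 fold changes of -1.52 to -1.21 over all 12 omissions. With siFAT1-2 the log2 fold change was -0.46 (SE 0.30, adjusted p = 0.343).

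TSPAN31, whose exons overlap those of CDK4, was not lower where CDK4 fell. It held 410 to 1126 counts per library, and with siFAT1-1 it was at 18.3 and 17.0 CPM in HN6 and 24.3 and 20.5 in HN30, against 14.0 and 15.1 in HN6 NC and 20.0 and 15.6 in HN30 NC. The promoter of CDK4 is shown because this is the kinase that fell and because of its E-boxes, the CACGTG letters that MYC and related factors bind. It is the window from 250 bases before to 50 after the RefSeq start site, GRCh38.p14 chr12:57752261-57752560, minus strand, printed 5′ to 3′ with E-boxes (CACGTG) and Sp1 boxes (GGGCGG, or CCGCCC on the other strand) in capitals.

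CDK4: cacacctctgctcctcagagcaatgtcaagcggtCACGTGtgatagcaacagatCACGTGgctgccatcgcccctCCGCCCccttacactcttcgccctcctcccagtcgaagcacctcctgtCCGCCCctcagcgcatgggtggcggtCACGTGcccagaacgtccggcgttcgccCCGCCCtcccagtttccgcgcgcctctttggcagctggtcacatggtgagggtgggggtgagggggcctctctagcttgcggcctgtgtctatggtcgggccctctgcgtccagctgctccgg

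It holds 3 E-boxes and 3 Sp1 boxes. Of 35116 RefSeq promoters, 7.26% hold at least 1 E-box, 33 (0.0940%) hold 3 or more, and 45.0% hold an Sp1 box. The cut of 3 equals the count in CDK4, whose promoter was shown for its E-boxes, so that share is a description. Whether the E-boxes bear on the fall of CDK4 was not tested. Among the other members in that table, 1 of the 2 promoters of CDK6 and 2 of the 3 of CDKN2C hold 1 E-box each, and those of CCND3, CDKN2A, CDKN2B and CDKN1B hold none. Neither TTTCCCGC nor TTTGGCGC, 2 forms of the E2F site searched on both strands and present in 1.63% and 0.652% of promoters, occurs in any promoter of these members; CCND1, CCND2 and CDKN1C have no entry. MYC, which can act through E-boxes, was not called with either siRNA, with log2 fold changes of -0.40 (SE 0.25, adjusted p = 0.402) with siFAT1-1 and 0.26 (SE 0.25, adjusted p = 0.527) with siFAT1-2.

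CDK6 was higher with siFAT1-2 but was not called. The HN6 NC repeats differed widely, at 174 and 24.7 CPM, and the siRNA libraries of that line were at 65.1 and 66.3 with siFAT1-1 and 213 and 198 with siFAT1-2. In HN30 CDK6 was at 105 and 197 CPM with NC, 157 and 142 with siFAT1-1, and 306 and 395 with siFAT1-2. All 4 siFAT1-2 libraries were above both NC libraries of their line. The log2 fold change with siFAT1-2 was 1.13 (SE 0.43, adjusted p = 0.108); without HN6 NC repeat 1 it was 1.83 (adjusted p = 0.0167), and limma-voom (adjusted p = 0.0381) and DESeq2 (0.0499) called it. With siFAT1-1 it was -0.30 (SE 0.43, adjusted p = 0.745), and 0.37 without HN6 NC repeat 1.

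Among the INK4 inhibitors, CDKN2B, which encodes p15 and is a known target of TGF-beta signalling, rose with siFAT1-2. It was at 20.5 and 13.9 CPM in HN6 NC, 22.5 and 20.3 with siFAT1-1, and 62.4 and 27.4 with siFAT1-2. In HN30 it was at 5.66 and 11.6 CPM with NC, 18.7 and 14.7 with siFAT1-1, and 55.3 and 27.3 with siFAT1-2. Every siFAT1-2 library was above both NC libraries of its line, with repeat 1 above repeat 2 in both lines. The log2 fold change with siFAT1-2 was 1.81 (SE 0.35, adjusted p = 0.00900), or 3.51-fold, and it was called without any 1 library (adjusted p from 0.00495 to 0.0320). With siFAT1-1 it was 0.61 (SE 0.34, 95% interval -0.13 to 1.36, adjusted p = 0.346), with both HN30 libraries above NC and those of HN6 overlapping it. The CDKN2B promoter, shown as that of the member with the largest rise, is GRCh38.p14 chr9:22009256-22009555, minus strand, with its 2 Sp1 boxes in capitals.

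CDKN2B: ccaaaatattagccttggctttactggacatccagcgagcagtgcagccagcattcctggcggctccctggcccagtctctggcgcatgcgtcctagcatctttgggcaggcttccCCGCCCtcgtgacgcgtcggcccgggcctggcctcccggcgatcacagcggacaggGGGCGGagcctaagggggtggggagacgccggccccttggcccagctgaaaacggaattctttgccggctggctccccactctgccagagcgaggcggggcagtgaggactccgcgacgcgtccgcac

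CDKN2A was not called with either siRNA. Its HN30 libraries were at 41.9 and 52.1 CPM with NC, 43.5 and 41.5 with siFAT1-1, and 35.5 and 50.8 with siFAT1-2, which overlap. In HN6 the counts were 6 and 11 with NC, 12 and 21 with siFAT1-1, and 22 and 22 with siFAT1-2. These few counts gave a log2 fold change of 1.28 (SE 0.46, unadjusted p = 0.0200, adjusted p = 0.155 by edgeR) with siFAT1-2 in HN6, at a level that stayed under 1 CPM. The test of the difference of the KD effect between the lines gave 1.17 for CDKN2A (SE 0.51, unadjusted p = 0.0441, adjusted p = 0.974 by edgeR).

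CDKN2C, which encodes p18, was not called with either siRNA. In HN6 it was at 13.1 and 19.7 CPM with NC, 19.8 and 20.1 with siFAT1-1, and 6.48 and 14.6 with siFAT1-2. In HN30 it was at 14.6 in both NC libraries, 9.46 and 8.91 with siFAT1-1, and 2.57 and 12.1 with siFAT1-2. The log2 fold changes were -0.18 (SE 0.41, adjusted p = 0.846) with siFAT1-1 and -0.83 (SE 0.41, adjusted p = 0.206) with siFAT1-2. The siFAT1-1 libraries were above NC in HN6 and below it in HN30, but the test of that difference gave 0.95 (SE 0.85, adjusted p = 1.00). The siFAT1-2 repeats lay far apart in both lines, a spread that the SE of that test takes in. The lowest value was that of HN30 siFAT1-2 repeat 1.

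The CIP/KIP inhibitors were not called in any comparison. CDKN1B was at 44.8 to 62.2 CPM in the 6 HN6 libraries, where NC held 44.8 and 58.4 and KD libraries 53.9 to 62.2. In HN30 its NC repeats were at 28.5 and 92.9 CPM, a spread that took in 5 of the 6 libraries of that line, all but siFAT1-2 repeat 1 at 20.99. The log2 fold changes were 0.14 (SE 0.35, 95% interval -0.63 to 0.91) with siFAT1-1 and -0.32 (SE 0.36, 95% interval -1.09 to 0.46) with siFAT1-2. CDKN1C was at 1.62 to 3.59 CPM, 53 to 103 counts, in all 12 libraries. Its highest values, 3.59 and 2.74, were those of HN30 siFAT1-1, and its log2 fold changes were 0.41 (SE 0.31, adjusted p = 0.504) with siFAT1-1 and 0.06 (SE 0.31, adjusted p = 0.920) with siFAT1-2.

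The siRNAs differed from each other in the cyclins and in CDK6 and CDKN2B. In siFAT1-1 against siFAT1-2, 4 of 9 members were called, beside 17.4% of all genes, and the libraries of 5, these and CDKN1B, did not overlap in either line, beside 34.1%. CCND1 was higher with siFAT1-1 by a log2 fold change of 1.27 (SE 0.25, adjusted p = 0.00632) and CCND3 by 1.06 (SE 0.16, adjusted p = 0.00219), and both were called without any 1 library. CDK6 was lower with siFAT1-1, by -1.43 (SE 0.43, adjusted p = 0.0411), as was CDKN2B, by -1.20 (SE 0.34, adjusted p = 0.0332). The CDK6 call was lost when any library other than HN6 NC repeat 1, HN6 NC repeat 2 or HN30 NC repeat 1 was left out (adjusted p from 0.0524 to 0.122). That of CDKN2B was lost without any 1 of the 4 siFAT1-1 libraries or without repeat 1 of siFAT1-2 in either line (0.0708 to 0.113), and with limma-voom (log2 fold change -1.09, adjusted p = 0.0582). CDK4 was lower with siFAT1-1 at -0.94 (SE 0.31) and missed the threshold with edgeR (adjusted p = 0.0544); DESeq2 (adjusted p = 0.0208), the fit with no filter (0.0468) and the fits without HN6 siFAT1-2 repeat 1 (0.00752) or HN6 NC repeat 2 (0.0368) did call it. Against NC, siFAT1-2 had the smaller FAT1 fold and more called members than siFAT1-1. It also had more calls over all genes, 11.8% against 3.25%. FAT1 itself was not called by edgeR between the siRNAs (log2 fold change -0.73, SE 0.31, adjusted p = 0.119).

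Pooling both siRNAs, as the study did, called 0 of the 9 members in KD against NC with edgeR, beside 0.547% of all genes. Unadjusted p-values were under 0.05 for 2 of them, CDK4 and CDKN2B, beside 14.5% of all genes; limma-voom called 0 and DESeq2 called 1, CDKN2B. CDKN2B had a log2 fold change of 1.33 (SE 0.43, unadjusted p = 0.00901, adjusted p = 0.186 by edgeR), and was the only member past the thresholds the study set on single genes, a P below 0.05 before adjustment together with a change of more than 1 on the log2 scale either way, which 3.07% of all genes passed. Without HN6 NC repeat 1 CDK6 passed them too, and without HN30 siFAT1-2 repeat 2 CDK4 did. CDK4 had a log2 fold change of -0.86 (SE 0.33, adjusted p = 0.257), CCND1 of -0.63 (SE 0.36, adjusted p = 0.443) and CCND3 of -0.11 (SE 0.29, adjusted p = 0.892).

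Within each line no member was called for KD against NC with edgeR, beside 0.0072% of all genes in HN6 and 0.0576% in HN30. In HN6 the unadjusted p was under 0.05 for 2 members, beside 14.1% of all genes, and limma-voom called 0 and DESeq2 1, CDK4; in HN30 it was so for 3, beside 14.2%, and limma-voom called 0 and DESeq2 1, CDKN2B. Without HN6 NC repeat 1 edgeR called CDK4 (adjusted p = 0.0162) and CDK6 (0.00460) in HN6, and without HN6 siFAT1-2 repeat 2 it called CDK4 (0.0469). Past the study's thresholds were CDK4 (log2 fold change -1.09, SE 0.28) and CDKN2A (1.04, SE 0.42) in HN6, beside 4.04% of all genes, and CDKN2B (1.61, SE 0.45) in HN30, beside 5.54%. In HN6 CDK4 no longer passed without siFAT1-2 repeat 1 or NC repeat 2, and CDKN2A no longer passed without siFAT1-1 repeat 2; in HN30 CDKN2B no longer passed without NC repeat 1, CCND1 passed without NC repeat 2, and CDKN2C without siFAT1-2 repeat 2. The difference of the KD effect between the lines called 0 members with edgeR, DESeq2 or limma-voom, beside 0.0% of all genes, and 1 member, CDKN2A, had an unadjusted p under 0.05, beside 4.0%; without HN6 NC repeat 1 CDK6 was called.

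Taking each siRNA within each line gave 36 pairs of member and condition, 0 of them called with edgeR, and 11 with an unadjusted p under 0.05. DESeq2 called 6 pairs and limma-voom 0. The shares of all genes given here are those of edgeR. On simulated data for siFAT1-2 against NC over both lines, with no difference between the lines, DESeq2 made 40 false calls and edgeR 8. The fits within a line were not simulated, so these numbers do not apply to the pairs. Of all genes, 0.108% were called for siFAT1-1 and 0.59% for siFAT1-2 in HN6, and 1.46% and 0.173% in HN30; 7.4%, 22.1%, 17.4% and 16.9% had an unadjusted p under 0.05. CDK4 with siFAT1-1 in HN30 was nearest, with a log2 fold change of -1.65 (SE 0.35, adjusted p = 0.0511), and became the 1 pair called with the repeat as a block (adjusted p = 0.0400). Without HN6 NC repeat 1 edgeR called 5 pairs, of CCND3, CDK4 and CDK6, without HN6 siFAT1-2 repeat 2 it called 3, of CCND1 and CDK4, and without HN6 NC repeat 2 or HN6 siFAT1-2 repeat 1 it called 1, of CDK4. CCND1 with siFAT1-2 was at -1.32 (SE 0.38, adjusted p = 0.104) in HN6 and -1.49 (SE 0.38, adjusted p = 0.114) in HN30. CDKN2B with siFAT1-2 was at 1.38 (SE 0.49, adjusted p = 0.149) and 2.26 (SE 0.51, adjusted p = 0.0919). At this level edgeR did not call FAT1 itself with siFAT1-2 in HN6 or siFAT1-1 in HN30, whereas DESeq2 did (adjusted p = 0.000154 and 0.0112). Its edgeR call with siFAT1-1 in HN6 was lost with the repeat as a block (adjusted p = 0.0710), with DESeq2 size factors (0.0536) and with HN6 alone (0.647). With siFAT1-2 in HN30, FAT1 was at 65.4% of the NC mean.

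The balance of cyclin to kinase transcripts, per length, went opposite ways with the siRNAs. The summed D-type cyclins were 12.5 and 7.75 times the sum of CDK4 and CDK6 in HN6 NC, 22.4 and 18.0 times with siFAT1-1, and 5.29 and 6.61 times with siFAT1-2. In HN30 the ratios were 6.55 and 3.25 with NC, 9.80 and 10.5 with siFAT1-1, and 1.48 in both siFAT1-2 libraries. In both lines the siFAT1-1 libraries were above NC and the siFAT1-2 libraries below it, without overlap. These ratios restate the levels given above. Exact two-sided permutation tests of libraries within lines covered this ratio, the CDK4 share and the CCND1 share. No difference between groups passed 0.05 after adjustment over 12 tests. With 4 libraries against 4 the smallest p that can be reached is 0.0556, so those tests could not pass. The tests of KD against NC can reach 0.00444. Their unadjusted p was 0.00889 for the CCND1 share and 0.0222 for the CDK4 share, both 0.0952 after adjustment, which counts the tests that could not pass. For the ratio it was 0.596.

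**Figure D3:**
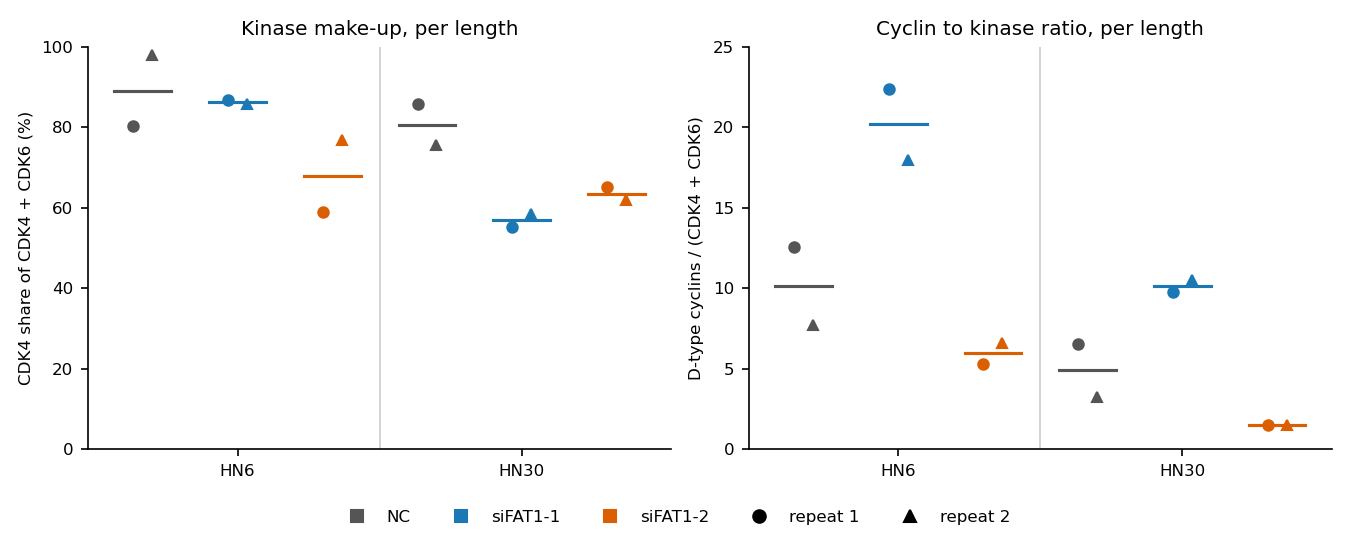
Left, CDK4 as a percentage of the summed CDK4 and CDK6 level; right, the summed D-type cyclin level divided by the summed CDK4 and CDK6 level, all in CPM per kb, with circles for repeat 1, triangles for repeat 2 and bars for the mean of 2 libraries. The ratio on the right is above NC with siFAT1-1 and below it with siFAT1-2 in both lines.

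CDK4 made up 80.3% and 98.0% of the pair in HN6 NC and 85.8% and 75.5% in HN30 NC. With siFAT1-1 the share was 86.9% and 85.8% in HN6, inside the NC range, and 55.2% and 58.6% in HN30, below it. With siFAT1-2 it was 59.0% and 76.8% in HN6 and 65.1% and 62.0% in HN30, below NC in both lines. CDKN2B was 53.8% and 34.5% of the summed level of the 3 INK4 genes in HN6 NC and 8.31% and 13.7% in HN30 NC, where CDKN2A made up most of the rest. With siFAT1-2 it was 87.1% and 57.7% in HN6 and 58.1% and 28.5% in HN30, above NC in both lines.

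Other genes of the pathway were taken from lists chosen by function. Their counts of called genes stand beside 3.25% of all genes with siFAT1-1 and 11.8% with siFAT1-2. The share of all genes at an unadjusted p under 0.05 is not given for these comparisons, so unadjusted counts are a description. Of 7 genes that assemble or activate the kinase, edgeR called 0 with siFAT1-1 (1 at an unadjusted p under 0.05) and 1 with siFAT1-2, CDK7 of the CDK-activating kinase, which rose by a log2 fold change of 0.64 (SE 0.18, adjusted p = 0.0366). Of 13 tested genes for the turnover of D-type cyclins, edgeR called 0 with siFAT1-1 (3 at an unadjusted p under 0.05) and 1 fell with siFAT1-2, FBXO4, a substrate adaptor of a cyclin D1 ubiquitin ligase (log2 fold change -1.25, SE 0.36, adjusted p = 0.0418). Of the 8 genes for the turnover and transcription of p27, edgeR called 0 with either siRNA, with 1 and 3 at an unadjusted p under 0.05. In siFAT1-1 against siFAT1-2, 3 of these 8 were lower, beside 17.4% of all genes called in either direction. They were FOXO4 (log2 fold change -1.52, SE 0.36, adjusted p = 0.0163), FOXO3 (-0.67, SE 0.20, adjusted p = 0.0418) and FOXO1 (-0.98, SE 0.30, adjusted p = 0.0423), the FOXO factors that can activate CDKN1B. Of 6 other CDK inhibitors and pocket proteins, CDKN2D, the remaining INK4 gene, fell with siFAT1-2 (log2 fold change -0.83, SE 0.25, adjusted p = 0.0484) and 0 were called with siFAT1-1 by edgeR or had an unadjusted p under 0.05.

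Of 12 tested transcription factors known to act on CCND1, 2 fell with siFAT1-2 and 1 with siFAT1-1, beside 11.8% and 3.25% of all genes called in either direction. RELA, a subunit of NF-kappaB, fell by 1.32 (SE 0.19, adjusted p = 0.00316) with siFAT1-2 and FOSL1, a subunit of AP-1, by 1.27 (SE 0.25, adjusted p = 0.00900). With siFAT1-1 TCF7L2, a partner of beta-catenin, fell by 0.89 (SE 0.20, adjusted p = 0.0329). The median log2 fold change of the list was -0.14 with siFAT1-1 and -0.086 with siFAT1-2, beside -0.0041 and -0.0044 over all genes.

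The E2F-regulated genes downstream of RB had fold changes mostly below 0 with both siRNAs. All 15 had a log2 fold change below 0 with siFAT1-1 and 14 of 15 with siFAT1-2, with medians of -1.09 and -0.60 beside -0.0041 and -0.0044 over all genes. CCNE1, MCM2 and MCM5 of this list were already reported by the study as lowered in these same libraries. The counts and medians thus include genes known beforehand to be lower. With siFAT1-1 the median was -0.32 in HN6 and -1.89 in HN30, and with siFAT1-2 it was -0.46 and -0.84. The siFAT1-1 effect was lower in HN30 than in HN6 for all 15 genes (median difference 1.54). Of these differences edgeR called 0, with 6 at an unadjusted p under 0.05. The share of all genes at that unadjusted p is not given for this comparison, so the 6 are a description. Called among them, beside 3.25% and 11.8% of all genes, were 1 with siFAT1-1, CCNE1 (log2 fold change -1.92, SE 0.43, adjusted p = 0.0302), and 2 with siFAT1-2, CCNE1 (-2.20, SE 0.43, adjusted p = 0.00915) and MCM5 (-1.38, SE 0.39, adjusted p = 0.0409). CCNE1 encodes cyclin E1, which acts with CDK2 after the D-type cyclins, and MCM5 a subunit of the replicative helicase. In siFAT1-1 against siFAT1-2, edgeR called 0 of the 15, beside 17.4% of all genes. An unadjusted p under 0.05 was reached by 2, a count given without its share over all genes.

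**Figure D4:**
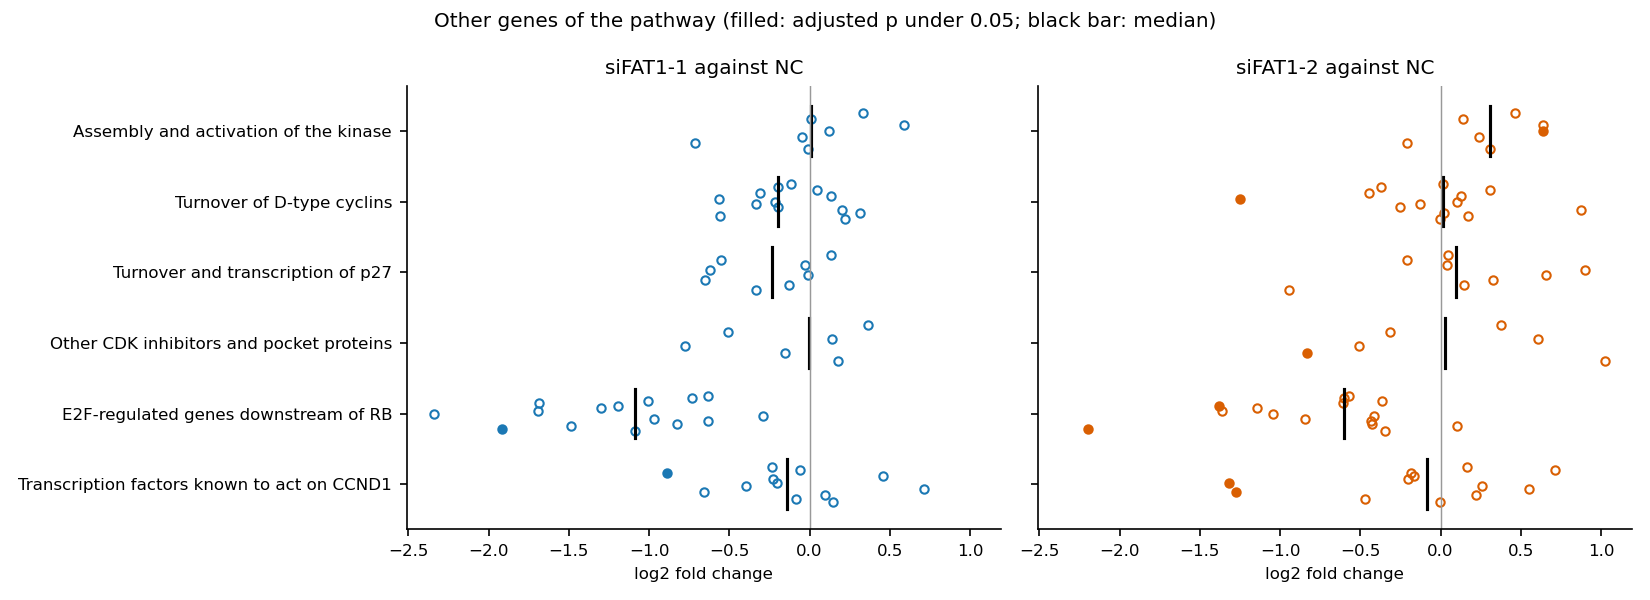
log2 fold change of the tested genes in 6 lists of other pathway genes, for siFAT1-1 (left) and siFAT1-2 (right) against NC; each circle is a gene, filled where the adjusted p was under 0.05, and black bars are list medians. The E2F-regulated list has its median below 0 with both siRNAs, while the medians of the other lists lie between -0.23 and 0.31.

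For 8 of the 9 tested members, the gene most like each in pattern was found by Pearson's r over the 12 libraries, on log2 CPM centred within each line; these libraries share lines, siRNAs and repeats, and r is a description. CCND3 was most like VAV1 (r = 0.985). CDK4 was most like EPN1 (0.989), CDK6 most like RPAP2 (0.976) and CDKN2B most like PUS3 (0.947). CDKN2C was most like PRC1 (0.961), CDKN1B most like B4GALT5 (0.952), CDKN1C most like RNF24 (0.944) and CDKN2A most like FPGT (0.909). The number of genes with r above 0.9 ranged from 1 for CDKN2A to 274 for CCND3, with 213 for CCND1, 193 for CDK6, 102 for CDK4 and 26 for CDKN2B.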

How the data were processed

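Poly(A) RNA was sequenced as 12 libraries. Per the labels, the authors mapped reads to hg38 with HISAT2 and counted them per gene with featureCounts; versions, annotation and strand setting are not given in the sources used here. The deposited table holds whole-number counts, not normalized, for 19225 entries, of which 2112 had no count and 27 had symbols turned into dates. Differences were tested with edgeR 4.0.16 in R 4.3.3 (TMM, filterByExpr with a minimum count of 10, quasi-likelihood test, Benjamini-Hochberg adjustment), with cell line as a term or with the 6 conditions. Alternatives were limma-voom 3.58.1, DESeq2 1.42.0, its size factors, no filter, no cell line term, 1 line alone, the repeat as a block, and omission of each library. Levels per length used merged GENCODE 44 exons; promoters are RefSeq, GRCh38.p14. The repeats of each line were done at separate times, which pairs them by the design; deviations of same-numbered libraries correlated at 0.078 to 0.24 in HN6 and -0.034 to 0.40 in HN30. Data were simulated for siFAT1-2 against NC over both lines (13769 genes), with no difference between the lines. On them edgeR recovered 28 of 100 changes of 2-fold and 90 of 100 of 4-fold. DESeq2 recovered 61 and 98, and limma-voom 36 and 90. False calls were 8 with edgeR, 40 with DESeq2 and 6 with limma-voom. Members and lists were chosen with earlier results of these data known. Named were the members, FAT1, CCNE1, MTAP, at most 3 genes a list with the smallest p (MYC, TSPAN31 and ORAOV1 were added after values were seen), and the gene most like each member; that of CCND1 is not reported here.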

Additional observations from a re-analysis of the deposited data

Results flagged for a closer look

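CDKN2C with siFAT1-1 differed in direction between the lines. Both HN6 siFAT1-1 libraries were above both NC libraries of that line, at 19.8 and 20.1 CPM against 13.1 and 19.7, and both HN30 siFAT1-1 libraries were below, at 9.46 and 8.91 against 14.6 in each NC library. The test of this difference, added after the values were seen, gave a siFAT1-1 effect in HN6 minus HN30 of 0.95 on the log2 scale (SE 0.85, unadjusted p = 0.290, adjusted p = 1.00 by edgeR). Its SE takes in the spread of all 6 conditions, also that of the siFAT1-2 repeats, which are not part of this difference. Those lay at 6.48 and 14.6 CPM in HN6 and at 2.57 and 12.1 in HN30.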

How the results depend on the processing

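Of the values of single genes under other settings that kept all libraries, 624 kept direction and side of the threshold, 28 gained a call, 6 lost one and 12 changed sign; of those with 1 library left out these were 1325, 27, 41 and 47. The calls lost with all libraries kept were of CDKN2B between the siRNAs and of FAT1, with siFAT1-1 in HN6 and in KD against NC. The latter was lost by edgeR with the block (adjusted p = 0.0757) and with no cell line term (0.331). With the repeat as a block, no call of a member was lost, and 2 were gained, those of CDK6 between the lines and of CDK4 with siFAT1-1 in HN30. The cause of the changes was not tested. On simulated data for siFAT1-2 against NC over both lines, edgeR recovered 28 of 100 changes of 2-fold.

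DESeq2 gave 1 called member in place of 0 for KD against NC, 1 within HN6, 1 within HN30 and 6 pairs of member and condition; limma-voom and the fit of HN6 alone each left 1 member past the study's thresholds in HN6; and DESeq2 size factors, no filter, the block and 1 line alone each gave 1 pair. With 1 library left out, counts ran from 0 to 1 for siFAT1-1, 2 to 5 between the siRNAs, 0 to 2 for KD within HN6, 0 to 1 for the difference between lines, 1 to 2 (KD), 1 to 3 (HN6) and 0 to 2 (HN30) past the study's thresholds, and 0 to 5 for pairs; where a group kept 1 library, that library was taken to vary like the other groups.

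The log2 fold changes that changed sign with all libraries kept follow. KD against NC gave -0.12 for CDKN2A with no cell line term and 0.025 for CDKN1B with the block. limma-voom gave 0.043 for CDK6 and -0.062 for CDKN2A with siFAT1-1, -0.0017 for CCND1 and 0.20 for CDK6 in the difference between lines, and 0.039 and 0.053 for CDK6 with siFAT1-1 in HN6 and HN30. With siFAT1-1, CDKN1C in HN6 gave -0.029 with the block, and CDK6 in HN30 gave 0.0091 with DESeq2 size factors, 0.0092 with DESeq2 and 0.056 with the block.

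With 1 library left out, these log2 fold changes crossed 0. KD against NC gave -0.29 to 0.37 (CDKN1B). siFAT1-1 against NC gave -0.28 to 0.086 (CCND1), -0.63 to 0.37 (CDK6), -0.050 to 0.37 (CDKN2A) and -0.088 to 0.61 (CDKN1B). siFAT1-2 against NC gave -0.52 to 0.12 (CDKN1B) and -0.21 to 0.15 (CDKN1C). HN6 against HN30 gave -0.13 to 0.36 (CDKN1B) and -0.24 to 0.064 (CDKN1C). KD against NC within HN6 gave -0.61 to 2.22 (CDK6), -0.53 to 0.12 (CDKN2C), -0.061 to 0.31 (CDKN1B) and -0.15 to 0.26 (CDKN1C). KD against NC within HN30 gave -0.23 to 0.040 (CCND3), -0.28 to 0.031 (CDKN2A) and -0.93 to 0.77 (CDKN1B). The difference of the KD effect between lines gave -0.43 to 0.53 (CCND1), -0.59 to 0.15 (CDK4), -1.22 to 1.63 (CDK6) and -0.64 to 1.06 (CDKN1B). siFAT1-1 against NC within HN6 gave -0.26 to 0.11 (CCND1), -0.037 to 0.20 (CCND3), -1.46 to 1.40 (CDK6), -0.0017 to 0.34 (CDKN1B) and -0.19 to 0.22 (CDKN1C). siFAT1-2 against NC within HN6 gave -0.12 to 0.27 (CDKN1B) and -0.30 to 0.51 (CDKN1C). siFAT1-1 against NC within HN30 gave -0.58 to 0.38 (CCND1), -0.40 to 0.52 (CDK6), -0.30 to 0.020 (CDKN2A) and -0.52 to 1.18 (CDKN1B). siFAT1-2 against NC within HN30 gave -0.12 to 0.053 (CDK4), -0.41 to 0.11 (CDKN2A) and -1.53 to 0.36 (CDKN1B).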
